A study of Homo sapiens with 6 samples.

Results

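NF-kappaB is a family of dimeric transcription factors built from the products of 5 genes, NFKB1, NFKB2, REL, RELA and RELB. Inhibitors of the IkappaB family (NFKBIA, NFKBIB and NFKBIE) hold the dimers in the cytoplasm until IkappaB kinase marks these inhibitors for destruction. TNFAIP3 encodes a ubiquitin-editing enzyme and BIRC3 a ubiquitin ligase, and both act on the same signalling route. Many of these genes are themselves NF-kappaB targets, so that the pathway feeds back on itself. These 10 genes, taken by name as a fixed set, were examined among the 27968 genes of the deposited tables. All 10 passed the filter on low counts.

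RNA was measured in T47D, an established human luminal breast cancer cell line, grown in RPMI medium with serum. One group of 3 libraries received a control siRNA and the other group of 3 an siRNA against the noncoding RNA HOTAIR that the labels call HOTAIR-N-specific, both delivered with RNAiMAX. Total RNA was taken 48 hours later, and the 3 libraries of a group come from separate transfections. All libraries come from this 1 line, 1 targeting siRNA is described, and its sequence was not used here, so that effects of the siRNA and of the lower HOTAIR level cannot be told apart.

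The libraries held 31777001 to 36707169 expected counts, the read numbers that RSEM assigns to each gene. HOTAIR was lower in every library of the HOTAIR-N siRNA, at 5.63 to 5.68 CPM (counts scaled to a common library size) against 16.1 to 16.6 with the control siRNA. The reads of HOTAIR and of its antisense neighbour HOXC11 cannot be told apart unless strand was used in counting. All 8 luminal markers were detected, with summed levels of 8862 to 9736 CPM in control and 7413 to 8061 CPM in HOTAIR-N siRNA libraries, but 5 of them were called lower and 1 higher. ESR1 and PGR, the oestrogen and progesterone receptor genes, fell to 32.1% and 36.4% of control and the keratin gene KRT18 to 65.8%, while the cadherin gene CDH1 rose 1.86-fold. The part of these marker changes in the results below was not tested. Leukocyte markers summed to at most 4.96 CPM, with NKG7 at 0 in every library and PTPRC averaging at most 0.0385 CPM in a group. The 8 stromal and endothelial markers summed to at most 32.1 CPM, nearly all of it COL1A1, at 29.4 ± 2.19 CPM (SD, n = 3) with the control siRNA. In bulk RNA a change in the number of cells of a kind and a change in RNA per cell cannot be told apart. Replicate 2 of the control siRNA and replicate 3 of the HOTAIR-N siRNA departed from their group means together (r = 0.36 over the tested genes, given as a description), and results are also given without both.

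The promoter sequences are shown first, since NF-kappaB binds a known DNA motif and several of the genes lie under their own pathway's control. RefSeq promoter windows on GRCh38.p14, from 250 bases before to 50 after a transcript start, were found for 8 of the 10 genes, in 13 windows, and not for RELB and NFKBIE. Each was searched on both strands for the 10-letter kappaB consensus. It was present in at least 1 window of 7 of the 8 genes and in 8 of the 13 windows, against 11.3% of 35116 windows and 13.3% of 27305 genes in the whole table. RELA had none. A related form, GGG then any 3 bases then TTCC, overlapped the consensus matches. It was found in the same 7 genes, against 7.83% of all genes, and in 8 of the 13 windows, against 6.52% of all windows. A motif of GAAA, any 2 bases and GAAA is a form of the element recognised by interferon-induced factors. Among these genes it was found only in RELA, against 4.38% of all genes. It lay in 1 of the 13 windows, against 3.57% of all windows. The stretches below, each read 5′ to 3′ on the gene's strand, hold the matches nearest to a start, with the matched letters in capitals.

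BIRC3 (chr11:102317329-102317378, plus strand, match at -135 to -126): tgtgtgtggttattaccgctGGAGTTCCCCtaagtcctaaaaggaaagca
TNFAIP3 (chr6:137867172-137867233, plus strand, matches between -67 and -46): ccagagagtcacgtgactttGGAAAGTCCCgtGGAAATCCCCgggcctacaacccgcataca
NFKB2, start 3 (chr10:102395664-102395713, plus strand, match at -21 to -12): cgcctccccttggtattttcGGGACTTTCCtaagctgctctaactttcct
NFKBIA (chr14:35404801-35404850, minus strand, match at -81 to -72): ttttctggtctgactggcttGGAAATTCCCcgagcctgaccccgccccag
REL (chr2:60881507-60881557, plus strand, matches between -47 and -37): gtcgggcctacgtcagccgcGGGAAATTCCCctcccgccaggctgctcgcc
NFKB1, start 1 (chr4:102501290-102501339, plus strand, match at -49 to -40): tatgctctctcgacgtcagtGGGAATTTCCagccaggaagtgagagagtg
NFKBIB, start 2 (chr19:38899921-38899971, plus strand, matches between -28 and -18): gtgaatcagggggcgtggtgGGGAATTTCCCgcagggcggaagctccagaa

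The first 5 of these genes rose after the HOTAIR-N siRNA, NFKB1 missed the threshold and NFKBIB fell, as described below. A match within these windows was thus found in genes of every outcome. RELA, which had the smallest rise among the 7 genes called higher, had no match in either of its windows. A match is a string of letters and was not tested for binding.

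**Figure D1:**
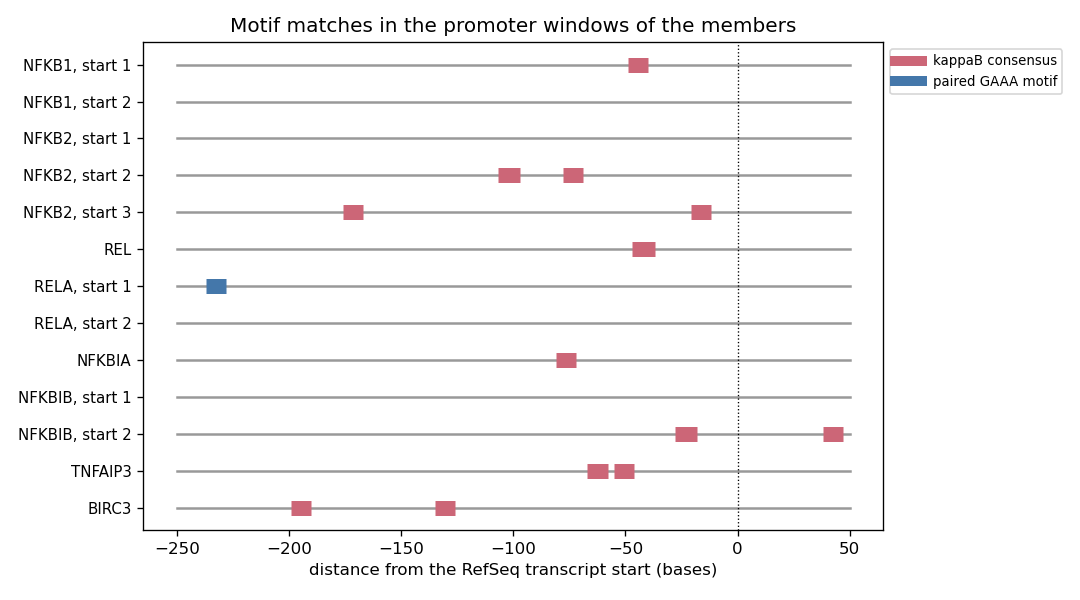
Positions of motif matches in the 13 RefSeq promoter windows of 8 genes, as distance in bases from the transcript start (dotted line); red blocks are kappaB consensus matches and the blue block is the paired GAAA match. Red blocks lie in 8 windows of 7 genes, and both RELA windows have none.

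Most of the set was higher after the HOTAIR-N siRNA. BIRC3, TNFAIP3, NFKB2, RELB, REL, NFKBIA and RELA rose, NFKBIB fell, and NFKB1 and NFKBIE were not called. The 8 called genes of 10 stand beside 71.1% of all 14919 tested genes, so that a share called of this size is near the background. Of the 10 genes 7 were called higher, against 36.2% of all genes, and 1 lower, against 34.8%. Of the 10 genes 6 were called and at least 1.5-fold apart, all of them higher, against 32.7% of all genes in either direction and 17.5% higher. Groups did not overlap for 8 of the 10 genes, as for 73.4% of all tested genes. The median log2 fold change of the 10 genes was 0.76, against 0.02 over all genes.

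**Figure D2:**
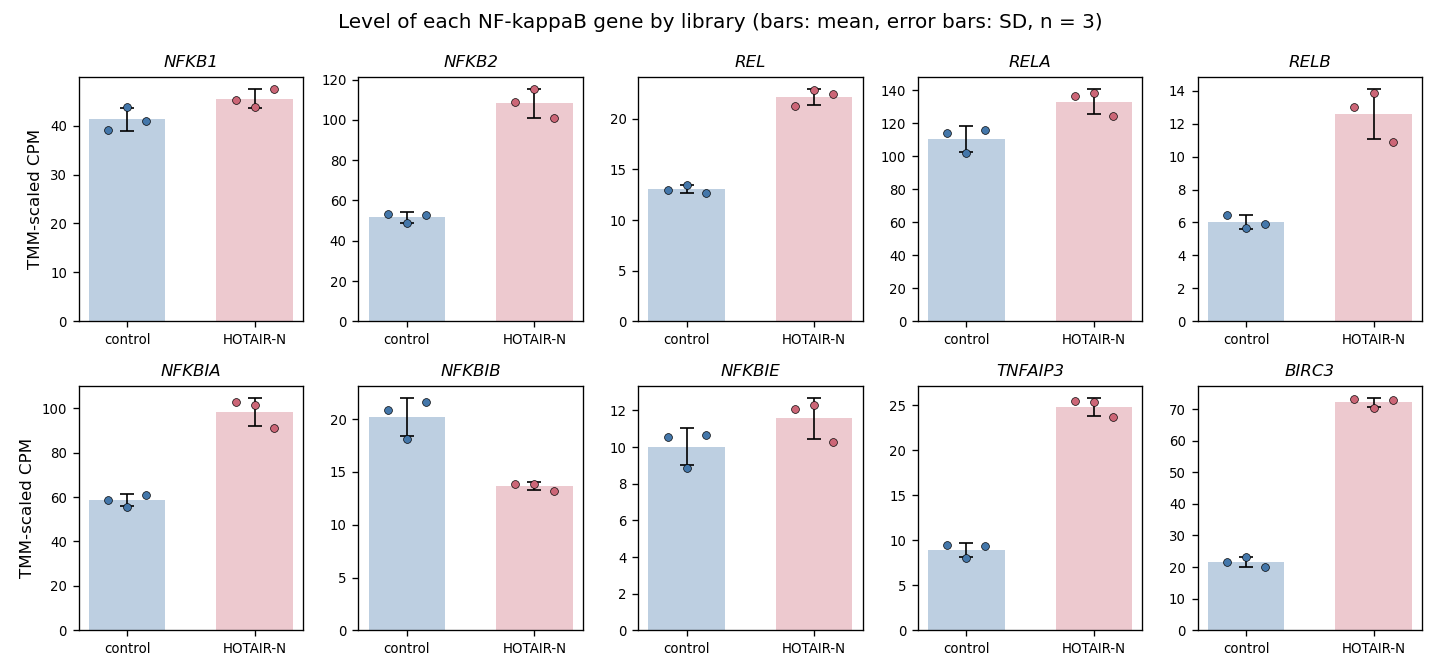
TMM-scaled CPM of the 10 genes in the 3 control siRNA libraries (blue) and the 3 HOTAIR-N siRNA libraries (red); points are libraries in replicate order, bars are means and error bars SD, and each vertical axis starts at 0. BIRC3 goes from 21.6 to 72.1 CPM, NFKBIB from 20.2 to 13.7 CPM, and the points of NFKB1 and NFKBIE overlap between the groups.

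Among the subunits, the partner genes NFKB2 and RELB rose by nearly the same factor. NFKB2 encodes p100, a precursor that is cut to the subunit p52 and that can itself hold back dimers. Its level in replicates 1, 2 and 3 was 53.5, 48.7 and 52.7 CPM for the control siRNA, and 109, 115 and 101 CPM for the HOTAIR-N siRNA. The groups were far apart relative to their spread, at 51.6 ± 2.55 and 108 ± 7.2 CPM (SD, n = 3), a 2.10-fold rise with a log2 value of 1.07 (SE 0.06; adjusted p = 1.31e-08 in edgeR's quasi-likelihood test). RELB, the usual partner of p52 in the alternative branch of the pathway, stood at 6.47, 5.66 and 5.90 CPM and then at 13.0, 13.9 and 10.9 CPM. Its lowest HOTAIR-N siRNA library was above its highest control library (log2 fold change 1.06, SE 0.10, adjusted p = 1.43e-06). RELB had the smallest counts of the set, 190 to 231 reads per control library, and the largest SE of the 10 log2 fold changes.

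The subunits of the classical branch moved less. REL, which encodes c-Rel, a subunit best known from lymphocytes, was at 13.0, 13.5 and 12.7 CPM with the control siRNA. With the HOTAIR-N siRNA it was at 21.3, 22.8 and 22.4 CPM, without overlap, a 1.70-fold rise (log2 fold change 0.76, SE 0.06, adjusted p = 3.79e-07). RELA encodes p65, the subunit of the most common dimer, which carries a transactivation domain. Its 114, 102 and 116 CPM became 137, 138 and 124 CPM (log2 fold change 0.27, SE 0.06, adjusted p = 0.00157). The groups did not overlap, but the RELA rise did not pass a test against a change of 1.2-fold (adjusted p = 0.373).

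NFKB1, which encodes the precursor of p50 and so the partner of p65, did not pass the test. The control libraries held 39.1, 43.7 and 40.9 CPM of it, and the HOTAIR-N siRNA libraries 45.2, 43.7 and 47.5 CPM. The highest control library and the lowest HOTAIR-N siRNA library were level. The log2 fold change was 0.14 (95% interval 0.01 to 0.27), and the adjusted p = 0.0501 lay at the threshold. NFKB1 was called in 7 of 17 alternative analyses, with log2 fold changes of 0.10 to 0.24 over all of them. These included the fits without replicate 2 of the control siRNA (adjusted p = 0.0114) and without replicate 2 of the HOTAIR-N siRNA (adjusted p = 0.0421). The interval does not reach the rises of NFKB2, RELB and REL.

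The 3 inhibitors went 3 ways. NFKBIA encodes IkappaBalpha, the fast-turning inhibitor that NF-kappaB induces and that ends its own activation. It was at 58.8, 55.7 and 61.1 CPM in the control libraries and at 103, 101 and 91.2 CPM in the HOTAIR-N siRNA libraries. These groups lie well apart, at 58.5 ± 2.74 and 98.4 ± 6.28 CPM (SD, n = 3), a 1.68-fold rise (log2 fold change 0.75, SE 0.06, adjusted p = 2.49e-07). NFKBIB encodes IkappaBbeta, a slower-turning inhibitor. It was the only one of the 10 genes called lower, from 20.9, 18.1 and 21.6 CPM to 13.9, 13.8 and 13.2 CPM. All HOTAIR-N siRNA libraries were below all control libraries, and the level was 67.6% of control (log2 fold change -0.57, SE 0.08, adjusted p = 2.84e-05). NFKBIE encodes IkappaBepsilon, an inhibitor linked to p65 and c-Rel dimers. Its 10.6, 8.88 and 10.7 CPM stood against 12.1, 12.3 and 10.3 CPM, with overlapping groups, and it was not called (log2 fold change 0.20, 95% interval -0.0028 to 0.412, adjusted p = 0.072). The NFKBIE value rested on single libraries. Its log2 fold change was 0.12 (adjusted p = 0.25) without replicate 2 of the control siRNA and 0.28 (adjusted p = 0.0206) without replicate 3 of the HOTAIR-N siRNA, the lowest library of each group. Leaving out either of the other HOTAIR-N siRNA libraries gave adjusted p = 0.206 and 0.223, and NFKBIE was called in 4 of the 17 alternatives.

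The feedback genes rose most. BIRC3 encodes cIAP2, a ubiquitin ligase that joins the receptor complexes of the tumour necrosis factor family and limits cell death. Control libraries had 21.6, 23.3 and 19.9 CPM, and HOTAIR-N siRNA libraries 73.1, 70.4 and 72.8 CPM. The groups lay far apart relative to their spread, and the fold change was 3.34 (log2 fold change 1.74, SE 0.06, adjusted p = 3.5e-10), which placed BIRC3 at percentile 96.8 of log2 fold changes of all tested genes. TNFAIP3 encodes A20, a ubiquitin-editing enzyme that shuts off signalling to IkappaB kinase. It was at 9.44, 8.04 and 9.34 CPM and then at 25.4, 25.3 and 23.7 CPM, a 2.77-fold rise without overlap (log2 fold change 1.47, SE 0.08, adjusted p = 5.64e-09), at percentile 95.4. The inhibitor NFKBIA was at percentile 86.4 and NFKBIB at percentile 16.1.

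**Figure D3:**
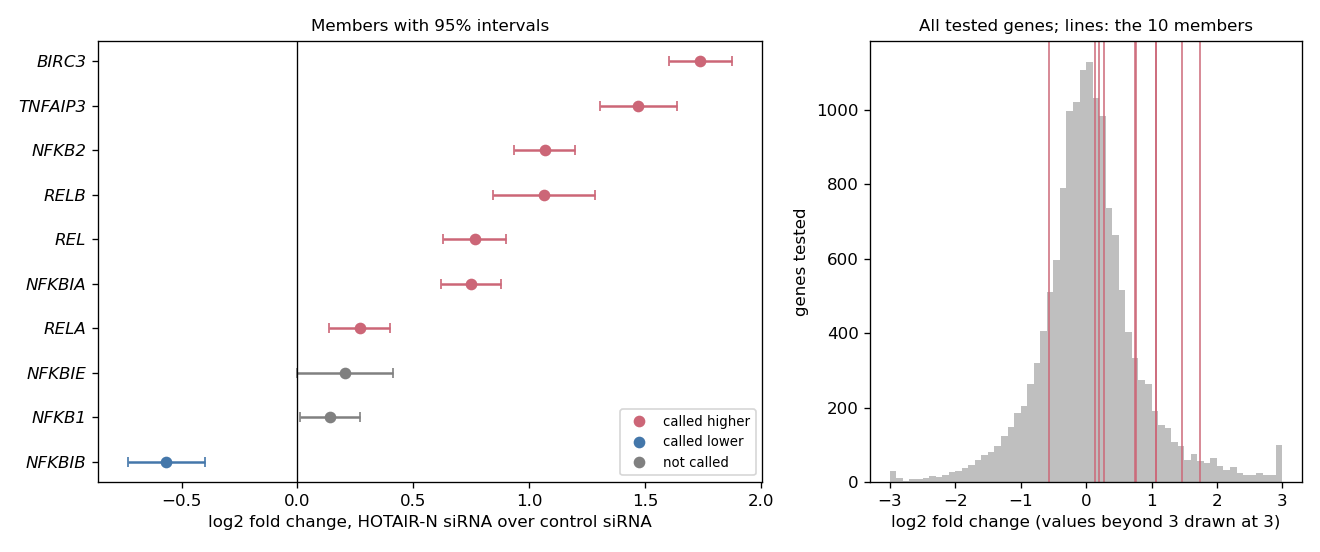
Left, log2 fold change of HOTAIR-N siRNA over control siRNA for the 10 genes, with 95% intervals from the edgeR fit; red was called higher, blue lower and grey not called. Right, histogram of log2 fold changes over the 14919 tested genes with the 10 genes as lines and values beyond 3 drawn at 3; BIRC3 (1.74) and TNFAIP3 (1.47) lie in the upper tail and NFKBIB (-0.57) is the only line left of 0.

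The 2 libraries that stand apart shared a pattern in this set. For NFKB2, RELA, RELB, NFKBIA, NFKBIB, NFKBIE and TNFAIP3 the lowest control library was replicate 2, and for the same 7 genes the lowest HOTAIR-N siRNA library was replicate 3. The share of all tested genes in this order was not computed. These 2 libraries also departed together over all tested genes (r = 0.36), so the pattern cannot be called particular to this set. Without both libraries 9 of the 10 genes were called higher and 1 lower, with 73.8% of all genes called. That fit had 2 libraries per group. The 2 left out were chosen for departing from their group means, which narrows the spread that the test uses. BIRC3 then had a log2 fold change of 1.77, TNFAIP3 1.42, RELB 1.10 and NFKBIB -0.63. NFKB1 and NFKBIE were called there, at log2 fold changes of 0.14 and 0.19 (adjusted p = 0.0145 and 0.0333). With all libraries the values were 0.14 and 0.20, so neither change was larger, and these calls are no firmer than the main result. The interferon-stimulated genes moved with the groups as well. A list of 10 of them, all called higher, summed to 647, 726 and 569 CPM in control siRNA replicates 1, 2 and 3. In HOTAIR-N siRNA replicates 1, 2 and 3 the list summed to 4198, 3971 and 2910 CPM. Of these 10 genes all were lowest in replicate 3 among the HOTAIR-N siRNA libraries, as were 5 of the 7 risen NF-kappaB genes. How many of all tested genes were lowest there was not counted. Among the control libraries the 2 sets differed: the interferon list summed highest in replicate 2, where 7 of the NF-kappaB genes were lowest. The part of the interferon-stimulated genes' rise in these results was not tested.

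To compare genes with one another, the deposited TPM, which are scaled to transcript length, were used. In control cells RELA (84.4 ± 5.9 TPM, SD, n = 3) and NFKBIA (77 ± 3.63 TPM, SD, n = 3) were the most abundant and overlapped in range. NFKB2 followed at 31.7 ± 1.72 TPM, then NFKBIB and NFKB1, whose ranges overlapped, at 23.2 and 19.7 TPM. NFKBIE, BIRC3 and RELB came next, at 7.64, 6.29 and 5.24 TPM, each clear of its neighbours. TNFAIP3 and REL, with overlapping ranges, were lowest at 3.61 and 3.16 TPM. With the HOTAIR-N siRNA NFKBIA stood above RELA without overlap, at 132 ± 7.71 against 104 ± 5.59 TPM (SD, n = 3). BIRC3 came level with NFKB1 (22.3 and 22.1 TPM, with overlapping ranges), and above NFKBIB at 16.0 TPM. REL was the lowest of the 10 in both groups.

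The make-up of the subunit mRNA shifted from RELA and NFKB1 to NFKB2 and RELB. RELA took 59.0%, 56.9% and 59.5% of the summed TPM of the 5 subunit genes in the control libraries and 49.8%, 49.1% and 48.8% in the HOTAIR-N siRNA libraries. NFKB2 took 22.4%, 21.9% and 21.8% and then 31.98%, 33.0% and 31.9%. The NFKB1 share was 13.7 ± 1.36% and then 10.5 ± 0.984%, and the RELB share 3.64 ± 0.186% and then 5.31 ± 0.381% (SD, n = 3). REL rose from 2.2 ± 0.172% to 2.61 ± 0.167% (SD, n = 3). None of the 5 shares overlapped between groups, and each gave an exact two-sided permutation p = 0.1, adjusted p = 0.1 over the 5, which is the smallest that 3 libraries against 3 allow.

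The summed TPM of the inhibitor genes shifted to NFKBIA. For NFKBIB this sum includes the noncoding transcript NR_040515, at 12.2 TPM on average in control and 8.47 TPM in HOTAIR-N siRNA libraries. NFKBIA took 71.4 ± 1.12% of the summed TPM of the 3 inhibitors in control libraries and 84.1 ± 0.164% in HOTAIR-N siRNA libraries (SD, n = 3). NFKBIB took 21.5 ± 0.799% and then 10.2 ± 0.396%, and NFKBIE 7.07 ± 0.326% and then 5.72 ± 0.235% (SD, n = 3). These shares did not overlap either, again at an exact two-sided permutation p = 0.1, the smallest possible. Both sums rose by a similar factor. The 5 subunits together held 144 ± 6.79 and then 211 ± 10.2 TPM (SD, n = 3), or 1.46-fold, and the 3 inhibitors 108 ± 6.57 and then 157 ± 8.88 TPM (SD, n = 3), also 1.46-fold. The ratio of inhibitor to subunit TPM was 0.744, 0.736 and 0.763 in the control libraries. In the HOTAIR-N siRNA libraries it was 0.765, 0.736 and 0.736, with overlapping groups (exact two-sided permutation p = 0.8). The inhibitor sum and the ratio were not computed without NR_040515. The similar factor and the overlap thus hold only with this noncoding form counted, and not for inhibitor mRNA alone. The inhibitor shares and this ratio were chosen after their values were seen.

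**Figure D4:**
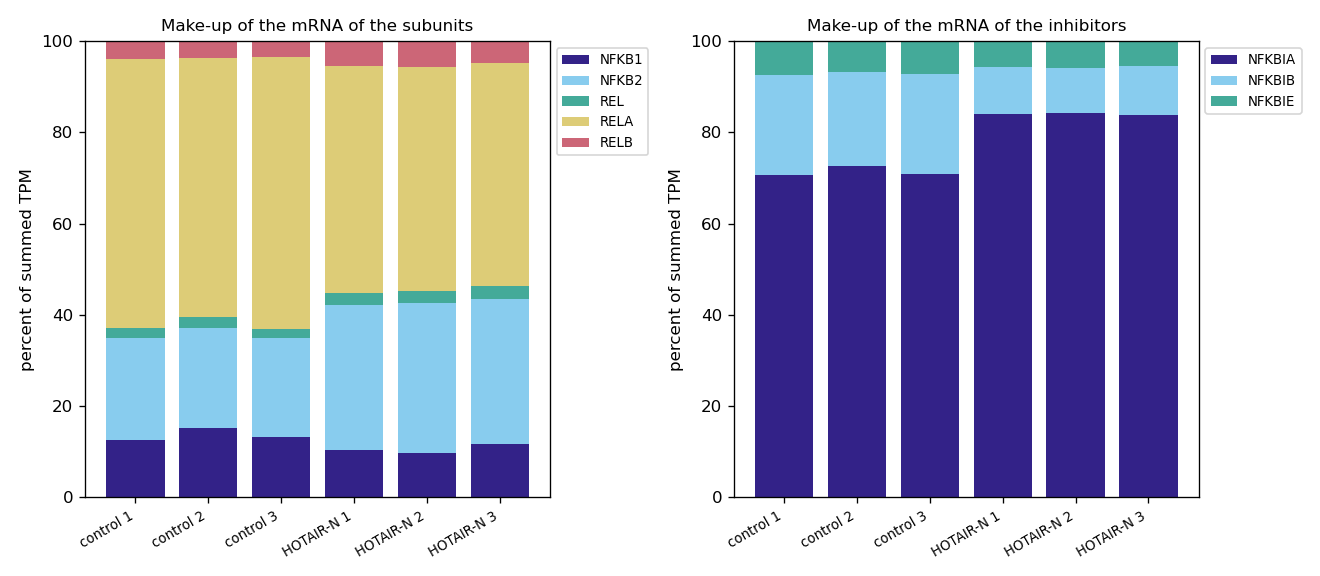
Share of the summed TPM taken by each of the 5 subunit genes (left) and each of the 3 inhibitor genes (right), as stacked bars in percent for every library. The RELA band narrows from 58.4% to 49.3% on average and the NFKB2 band widens to 32.3%; the NFKBIA band widens from 71.4% to 84.1%.

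The transcript tables list 26 RefSeq transcripts of the 10 genes, of which 24 were tested. Of these 10 were called higher and 2 lower, against 32% of 32285 tested transcripts called and 15.4% called higher. NFKB2 has 6 transcripts, and the 3 called, NM_001322934, NM_002502 and NM_001288724, rose 2.13-fold, 2.19-fold and 2.20-fold. Their shares of the gene's TPM overlapped between groups, for example 38.2 ± 1.16% and 38.4 ± 1.35% (SD, n = 3) for NM_001322934. Both NFKBIB transcripts that could be tested, NM_002503 and the noncoding NR_040515, fell, with log2 fold changes of -0.60 and -0.545 (adjusted p = 0.0255 and 0.00881 in edgeR). They kept near-even shares of the gene, at 47.5 ± 1.07% and 46.2 ± 1.76% (SD, n = 3) for NM_002503, with overlapping ranges.

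Both BIRC3 transcripts rose, NM_001165 3.11-fold and the shorter NM_182962 5.28-fold (adjusted p = 0.000212 and 0.0116 in edgeR). The share of NM_182962 was 17.5 ± 6.62% and then 25.9 ± 10.4% (SD, n = 3), which overlap. Of TNFAIP3 only NM_006290 was called, at 3.27-fold (adjusted p = 0.00804). The split among the 3 TNFAIP3 transcripts varied widely between replicates, as with NM_001270508 at 33.4 ± 27.3% of the gene in control libraries (SD, n = 3). No NFKB1 transcript was called. Of the 26 transcripts only the rare RELA form NM_001145138, at 0.127 ± 0.219% and then 0.753 ± 0.24% (SD, n = 3), had shares without overlap. That form averaged only 5.12 expected counts in control and 34.3 in HOTAIR-N siRNA libraries, and it was not called (adjusted p = 0.277 in edgeR). RSEM divides reads among similar transcripts by estimate, so single transcript values are less certain than gene values.

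The wider pathway was described with 5 lists of genes by role, each to be read against the 71.1% of all tested genes that were called, 36.2% higher and 34.8% lower. Some low genes reached the count filter only through the HOTAIR-N siRNA libraries, in that fewer than 3 control libraries met its minimum. Such genes could be tested only because they were higher there, so counts are also given without them. In the fit without a filter, which tested 21662 genes and called 50.9% of them, 5 ligands, 13 receptors and 22 targets were higher. Of 14 ligands 6 were tested; 5 rose and 1 was not called. TNFSF13B and IL17C were tested only through the HOTAIR-N siRNA libraries, and of the other 4 ligands 3 rose. IL18, an inflammasome cytokine, went from 10.9, 11.5 and 9.39 CPM to 33.4, 35.2 and 36.6 CPM (log2 fold change 1.73, SE 0.08, adjusted p = 1.79e-09). TNF, the classical activator of NF-kappaB, went from 2.63, 2.26 and 2.12 CPM to 7.41, 7.91 and 7.42 CPM, a 3.23-fold rise (adjusted p = 3.96e-08). Neither gene's groups overlapped. TNFSF13B (BAFF) rose 9.72-fold, IL17C 5.79-fold and TNFSF14 2.14-fold, all to at most 1.62 CPM on average. IL1B, TNFSF11, CD40LG and IL17A had 0 counts in every library.

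Of 22 receptors 18 were tested, with 13 higher, 2 lower and 3 not called, so that 83.3% were called against 71.1% of all genes. TLR2 and TNFRSF1B were tested only through the HOTAIR-N siRNA libraries, and of the other 16 receptors 11 rose and 2 fell. TLR3, an endosomal sensor of double-stranded RNA, rose from 1.63, 1.82 and 1.12 CPM to 14.8, 16.0 and 14.1 CPM, or 9.83-fold (adjusted p = 6.24e-10). TLR1 rose 4.17-fold, TLR2 3.20-fold and the tumour necrosis factor receptor gene TNFRSF1B 3.19-fold, all to at most 1.53 CPM on average. The interleukin-1 receptor genes parted. IL1R1, the signalling receptor, fell from 29.6 ± 0.27 to 13.1 ± 0.666 CPM (SD, n = 3), and IL1RAP, its accessory chain, rose 1.96-fold. LTBR, the lymphotoxin receptor that feeds the alternative branch, was called lower with overlapping groups (log2 fold change -0.30, adjusted p = 0.00668). TNFRSF1A, the main tumour necrosis factor receptor, was at 23.7 ± 0.746 and 23.8 ± 0.679 CPM (SD, n = 3) and was named after its values were seen.

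The 36 adaptors, ubiquitin ligases and kinases were all tested, with 14 higher, 14 lower and 8 not called, and a median log2 fold change of 0.07 against 0.02 over all genes. The 77.8% called lie near the 71.1% of all genes. The split moved with the scaling, to 17 higher and 13 lower with upper-quartile scaling and to 18 higher and 12 lower with library totals alone. The related genes TAB2 and TAB3, whose products link the kinase TAK1 to ubiquitin chains, went opposite ways. TAB2 fell from 285, 304 and 287 CPM to 108, 99.9 and 114 CPM, or 36.7% of control (adjusted p = 3.98e-10). TAB3 rose from 46.3, 49.8 and 46.4 CPM to 119, 116 and 125 CPM, or 2.53-fold (adjusted p = 5.85e-10). The adaptor genes TRAF5, TRAF1 and IRAK2 rose 2.27-fold, 2.05-fold and 3.70-fold, and the kinase gene IKBKE 2.12-fold. The genes of the IkappaB kinase complex, singled out after their values were seen, had log2 fold changes of -0.40 for CHUK (IKKalpha, called lower), 0.32 for IKBKB (IKKbeta, called higher) and -0.14 for IKBKG (NEMO, adjusted p = 0.165). MAP3K14, which encodes the kinase of the alternative branch, was at 6.81 ± 0.687 and 7.62 ± 0.438 CPM (SD, n = 3, adjusted p = 0.152), and was also chosen after its values were seen.

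Other inhibitors and feedback genes were mixed as well. All 22 were tested, 10 rose, 5 fell and 7 were not called, with a median log2 fold change of 0.14. The 68.2% called do not exceed the 71.1% of all genes, so that the counts are near the background. ZC3H12A, a ribonuclease that degrades inflammatory mRNAs, rose from 13.3, 11.5 and 13.2 CPM to 35.1, 36.8 and 31.8 CPM (log2 fold change 1.44, SE 0.08, adjusted p = 7.89e-09). TNIP1, which encodes a partner protein of A20, fell from 108, 97.1 and 103 CPM to 59.3, 62.0 and 56.7 CPM, so that it moved against TNFAIP3 with no overlap in either gene. OTUD7B, a deubiquitinase, fell to 55.3% of control, and TNIP3, which reached the filter only through the HOTAIR-N siRNA libraries, rose 3.66-fold from 0.135 to 0.503 CPM on average.

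Of 34 target genes outside the set 30 were tested; 22 rose, 3 fell and 5 were not called, so that 83.3% were called against 71.1% of all genes. Of the 30 tested targets 20 were called at least 1.5-fold higher, against 17.5% of all tested genes. CXCL2, CXCL8, PTGS2, MMP9 and PLAU were tested only through the HOTAIR-N siRNA libraries. Of the other 25 targets 17 rose, 15 of them at least 1.5-fold, and 3 fell. CCL2, a monocyte chemokine, rose from 4.43, 4.79 and 3.78 CPM to 21.3, 20.4 and 21.1 CPM, or 4.83-fold (adjusted p = 4.75e-10). SAA1, an acute-phase protein, rose from 14.5, 13.3 and 13.5 CPM to 48.0, 48.6 and 44.01 CPM, or 3.40-fold (adjusted p = 4.11e-10). The groups of both genes were far apart. PLAU, CXCL8, CXCL2, CCL5, MMP9 and PTGS2 rose at least 2-fold but averaged at most 4.42 CPM after the HOTAIR-N siRNA, and CCL20 and CXCL10 averaged 7.36 and 7.33 CPM. LCN2, IL32, IRF1, LIF, IL15 and TRAF1 also rose at least 2-fold. IER3, TNIP1 and GADD45B fell, GADD45B to 65.1% of control, and IL6 and CSF2 had 0 counts in every library. CXCL10, IRF1, IL15 and CCL5 are also known as interferon-induced genes, and TRAF1, TNIP1, BCL3 and ZC3H12A stand on a second list here.

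**Figure D5:**
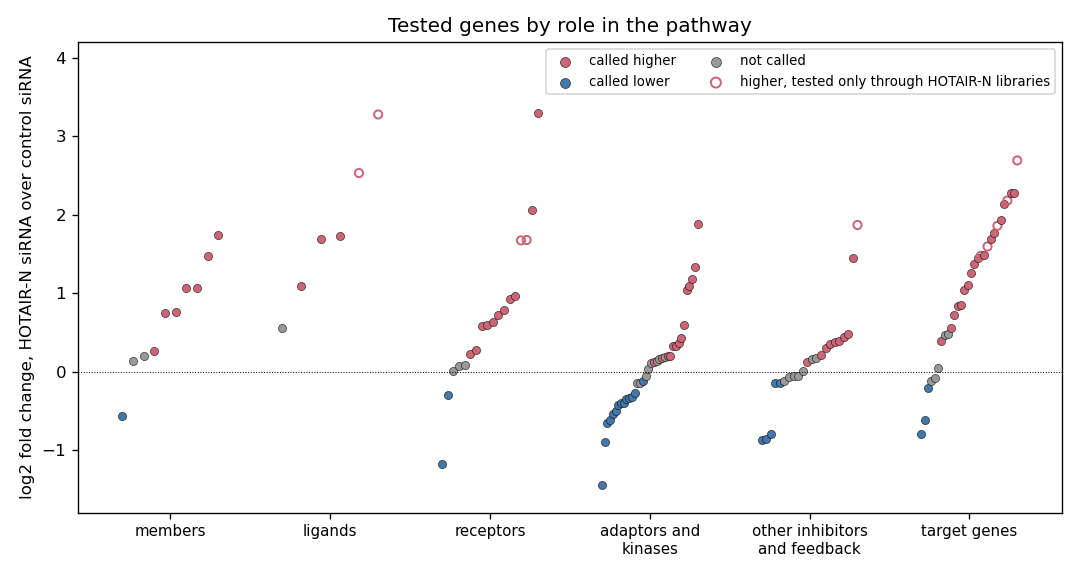
Log2 fold change of HOTAIR-N siRNA over control siRNA for every tested gene of the set (members) and of the 5 pathway lists, sorted within a list; red was called higher, blue lower and grey not called, and open red circles are genes that reached the count filter only through the HOTAIR-N siRNA libraries. Adaptors and kinases lie on both sides of 0 (14 higher, 14 lower), and of the 22 targets above 0 that were called 5 are open circles.

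Limits of gene identity touch 4 of the 10 genes. In GENCODE release 29, exons of SIRT2 overlap those of NFKBIB on the opposite strand by up to 40 bases, exons of AL357060.1 those of TNFAIP3 by up to 95 bases and exons of AP001362.2 those of RELA by up to 9 bases. AC010733.2 shares up to 5702 bases of exon with REL on the same strand. Whether strand was used in counting is not stated in the labels, so reads of opposite-strand neighbours could be counted with NFKBIB, TNFAIP3 and RELA. For REL, strand could not separate the reads of the shared exon in either case.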

How the data were processed

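Stranded total RNA libraries were made after removal of ribosomal RNA, per the labels' protocols. The submitters' processing notes list STAR 2.6.0c, RSEM 1.3.0 and hg19. Per the file headers, the authors deposited expected counts and TPM per gene and per transcript, and the share of each transcript in its gene as a percent. These counts were made whole by rounding, filtered with filterByExpr (minimum count 10, minimum total 15), scaled by TMM and tested with edgeR 4.0.16 (R 4.3.3) by the quasi-likelihood test without covariates. A call means a Benjamini-Hochberg adjusted p under 0.05 over all 14919 genes or 32285 transcripts tested. CPM are TMM-scaled, and fold changes divide the HOTAIR-N siRNA by the control siRNA. Shares of summed TPM were compared by an exact two-sided permutation test over the 6 libraries. The steps were tested on simulated data in which few genes changed, unlike the comparison here. That run therefore cannot vouch for the scaling or the calls in these data. The depth gave at least 190 reads for each of the 10 genes in every library.

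The 10 genes, the pathway lists and the tests were chosen with earlier results of these data known. Genes named from a list are its 3 smallest p, each called gene at least 2-fold apart and up to 2 called against the larger side. Those said to be chosen later come on top, and for the targets all 3 called lower are named. Alternatives were DESeq2 (1.42.0) and its size factors, limma-voom (limma 3.58.1), upper-quartile scaling, library totals, a replicate block, libraries left out, dropping the filter, requiring 1 CPM in 3 libraries, testing against a 1.2-fold change and calling at 0.01. Promoter windows came from RefSeq on GRCh38.p14 and exon overlaps from GENCODE release 29 on GRCh38. These were used only for sequences and neighbours, since the files use hg19 and hold no coordinates.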

Additional observations from a re-analysis of the deposited data

How the results depend on the processing

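Over 17 alternatives BIRC3, TNFAIP3, NFKB2, RELB, REL, NFKBIA and NFKBIB kept their direction and their call, with log2 fold changes of 1.68 to 1.84 for BIRC3 and -0.64 to -0.47 for NFKBIB. RELA was not called in the test against a 1.2-fold change, and NFKB1 and NFKBIE were called under 7 and 4 alternatives. The genes of the set called higher numbered 6 to 9 and those called lower 1 under every alternative. Against a 1.2-fold change 6876 genes were called, with 8 adaptors higher and 9 lower, 5 other inhibitors and feedback genes higher and 3 lower, and 1 receptor lower. Upper-quartile scaling, library totals and an adjusted p under 0.01 also left 3 of the other inhibitors and feedback genes lower, and library totals left 1 receptor lower. Library totals moved the median log2 fold change of all genes from 0.02 to 0.12. The filter of 1 CPM in 3 libraries left 3 ligands and 18 targets called higher, since fewer were tested. With counts not divided by length, the rise in share of subunit mRNA was 1.03 percentage points for REL and 1.202 for RELB, against 0.413 and 1.67 by TPM. With the replicate block 10010 genes, 7 higher and 1 lower of the set, 9 transcripts of the set against 12, and 3 of the other inhibitors and feedback genes called lower were found. Same-numbered libraries did not deviate together (r = 0.06, -0.28 and -0.19 across genes). Deviations within a group cancel, so these values constrain one another. They cannot show whether same-numbered libraries shared a day or batch, which the labels do not state. Counting depth limits the low ligands and chemokines, and arms of 3 libraries limit the exact tests to p = 0.1.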
